A study of Mus musculus with 20 samples.

Results

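Pax3, Pax7, Pax9 and Pax6 are 4 of the 21938 protein-coding genes that GENCODE vM21 places on mouse chromosomes 1 to 19, X and Y, and their surroundings were examined in peak lists of H3K27 acetylation (H3K27ac) from the embryonic mouse face. A peak was assigned to a gene where it overlapped the gene body, or where the nearest start site of any protein-coding gene within 100 kb belonged to that gene. By this rule the 4 genes held 63 of 144852 peaks, of which 33 belonged to Pax3, 16 to Pax7, 11 to Pax9 and 3 to Pax6. Acetylation of this lysine accompanies enhancers and promoters in use, so a peak is a stretch of chromatin that carries the mark in the dissected tissue, and the lists hold no measurement of RNA.

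Pax genes encode transcription factors that bind DNA through a paired domain, and Pax3, Pax7 and Pax6 also carry a homeodomain. Pax3 and Pax7 act together in the cranial neural crest and the frontonasal mesenchyme that is derived from it, Pax9 acts in the mesenchyme of the palate, the teeth and the nasal region, and Pax6 is needed in the eye and in the ectoderm from which the lens and the olfactory epithelium form. Regulation of these genes by enhancers that lie in introns or at a distance from the promoter has been described for several tissues.

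All embryos were wild type. Mandibular process and maxillary process were taken at all 3 stages (e11.5, e13.5, e15.5), along with the medial nasal plate plus the lateral nasal plate at e11.5 and the nose at e13.5 and e15.5. There were 10 H3K27ac libraries, 1 for each region and stage, made from freshly dissected tissue with mixed cell types, so no region at a given stage had a replicate, and 10 matching input samples were not analysed here. In such tissue a smaller number of cells with the mark and a weaker mark in each cell cannot be told apart.

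The lists differed in length in the same direction as the regions. At e11.5 and e13.5 the 3 nasal libraries (medial nasal plate, lateral nasal plate and e13.5 nose) held 20492 to 25941 peaks, and the 4 jaw libraries (mandibular and maxillary process) held 6571 to 10753. Over all 10 libraries the peaks covered between 10.5 and 49.4 Mb. Read depth is unknown from these lists, and list length and region cannot be told apart in counts or covered lengths. In the e15.5 lists the peak names gave another region than the labels: nose for the library labelled mandibular process, md for the library labelled maxillary process and mx for the library labelled nose. Hand2, a regulator of mandibular identity, was covered over 29703 bp at e11.5 and 27170 bp at e13.5 in the mandibular process. At e15.5 it was covered over 40291 bp in the library labelled maxillary process, over 238 bp in that labelled nose and not at all in that labelled mandibular process. The labels were kept as names, and the e15.5 libraries were left out of the comparison of nasal with jaw tissue.

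The sequences that carry the peaks described here are shown first, each read 5′ to 3′ on the strand of its gene in mm10 (GRCm38), with CpG dinucleotides in capitals. Pax3 intronic window is centred on the stretch shared by 4 libraries in the wider of the 2 distal Pax3 regions marked in 4 libraries (chr1:78157607-78157906, minus strand). Pax3 upstream window lies in a region marked in 2 nasal libraries and was chosen after its CpG content was seen (chr1:78216703-78217002, minus strand). Pax7 intronic window is centred on the stretch shared by 3 libraries in the distal Pax7 region found in most libraries (chr4:139810991-139811290, minus strand). Pax9 promoter, from RefSeq, precedes a start inside the gene rather than the first start and was covered by a peak in 4 libraries (chr12:56695221-56695470, plus strand). Pax6 promoter, also from RefSeq, had no peak in any library and is shown as the contrast (chr2:105668646-105668895, plus strand).
Pax3 intronic window: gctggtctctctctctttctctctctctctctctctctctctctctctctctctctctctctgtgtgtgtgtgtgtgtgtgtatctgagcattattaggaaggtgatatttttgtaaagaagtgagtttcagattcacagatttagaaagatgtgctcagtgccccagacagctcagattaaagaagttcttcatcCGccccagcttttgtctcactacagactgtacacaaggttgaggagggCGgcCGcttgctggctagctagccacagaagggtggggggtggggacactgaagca
Pax3 upstream window: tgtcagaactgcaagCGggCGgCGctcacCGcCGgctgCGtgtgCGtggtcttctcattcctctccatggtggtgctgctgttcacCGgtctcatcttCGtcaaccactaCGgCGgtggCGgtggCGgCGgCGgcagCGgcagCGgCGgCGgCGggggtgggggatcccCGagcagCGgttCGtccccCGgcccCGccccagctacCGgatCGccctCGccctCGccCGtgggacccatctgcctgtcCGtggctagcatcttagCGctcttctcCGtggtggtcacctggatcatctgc
Pax7 intronic window: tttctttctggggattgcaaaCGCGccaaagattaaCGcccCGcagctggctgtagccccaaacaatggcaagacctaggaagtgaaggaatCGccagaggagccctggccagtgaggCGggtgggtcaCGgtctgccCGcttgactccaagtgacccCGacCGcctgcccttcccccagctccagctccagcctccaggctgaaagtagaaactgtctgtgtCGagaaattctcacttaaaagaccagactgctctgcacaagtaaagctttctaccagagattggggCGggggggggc
Pax9 promoter: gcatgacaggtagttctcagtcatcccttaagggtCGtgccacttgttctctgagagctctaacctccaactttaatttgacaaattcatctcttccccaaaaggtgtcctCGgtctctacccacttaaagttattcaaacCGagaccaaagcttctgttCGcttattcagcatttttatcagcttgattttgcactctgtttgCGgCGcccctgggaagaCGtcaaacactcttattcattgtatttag
Pax6 promoter: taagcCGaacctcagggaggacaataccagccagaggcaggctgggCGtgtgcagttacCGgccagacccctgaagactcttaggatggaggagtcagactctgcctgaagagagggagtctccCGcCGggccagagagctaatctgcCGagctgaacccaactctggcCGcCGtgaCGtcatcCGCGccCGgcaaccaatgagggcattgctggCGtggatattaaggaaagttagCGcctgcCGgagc
RefSeq promoter entries were matched for 3 of the 4 genes, and the stretch shown is the 250 bases before the start.

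The 5 sequences differed in CpG content, and Pax3 intronic window opens with a run of simple CT and GT repeats. Pax3 upstream window held 33 CpG dinucleotides, more than 99.8% of 27439 windows of the same length at distal regions of all genes, where the median was 4. Pax7 intronic window held 12, more than 96.9% of those windows, and Pax3 intronic window held 3. In the promoters, Pax6 held 15 and Pax9 held 7 in 250 bases, against a median of 6 over 32851 RefSeq promoter entries. These 2 entries differ in place, since that of Pax6 lies before the first start and that of Pax9 before a later start inside the gene. The Pax7 entry, not shown because it overlaps exons, was covered in 4 libraries and held 13 CpG. Among these entries that of Pax6, which had no peak, held the most CpG. Whether CpG content goes with the mark was not tested. Exact matches to TAATTA, a homeodomain core, to the palindrome of paired homeodomain dimers with a spacer of 3 bases, to CAGATG and CACGTG (E-boxes), to CCAAT, to GGGCGG (a GC box) and to TATAAA were sought on both strands. Neither homeodomain motif was found in any of the 5 sequences, and TAATTA itself was in 6.78% of the distal windows and 4.84% of the promoters. GGGCGG, present in 6.68% of distal windows, was found 2 times in each Pax3 window and 1 time in the Pax7 window. CAGATG, present in 25.6% of distal windows, was found 2 times in Pax3 upstream window. CCAAT was found 1 time in the Pax7 window, where it shared 1 base with the GC box, and 1 time in the Pax6 promoter, against 30.3% of distal windows and 33.8% of promoters. Absence of a match says only that these letters are not in the window.

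Pax3 was the most widely marked of the 4 genes. It lies on chromosome 1 (chr1:78101267-78197134, minus strand, mm10), and its 33 peaks fell into 8 separate regions and 9 of the 10 libraries. The length of DNA under its peaks, here called the covered length, was 0 bp in the e11.5 mandibular process, 3011 bp in the maxillary process, 14241 bp in the medial nasal plate and 26197 bp in the lateral nasal plate. At e13.5 it was 5303 bp in the mandibular process, 10529 bp in the maxillary process and 28071 bp in the nose. At e15.5 it was 24794 bp, 9274 bp and 9802 bp in the libraries labelled mandibular process, maxillary process and nose. Every nasal library of e11.5 and e13.5 thus exceeded every jaw library, with the smallest gap between the medial nasal plate and the e13.5 maxillary process, and 27.4% of all genes tested had this order.

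**Figure D1:**
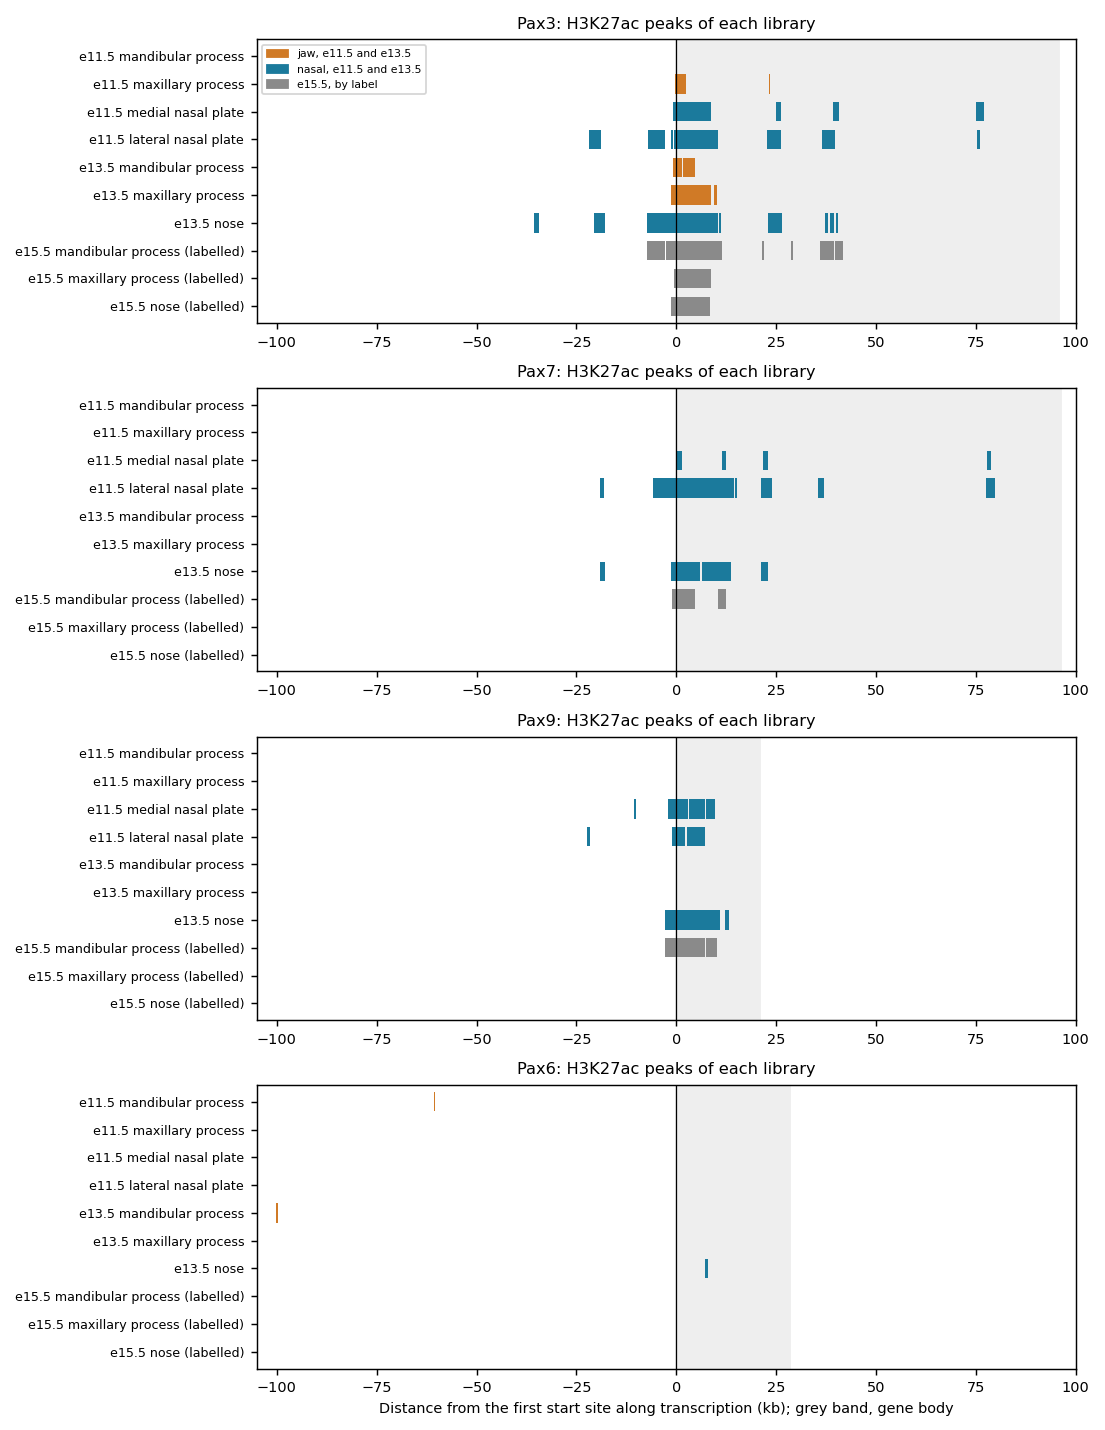
H3K27ac peaks assigned to Pax3, Pax7, Pax9 and Pax6 (panels) in each library (rows), drawn to scale by distance from the first start site in kb along the direction of transcription; the grey band is the gene body, and colours separate jaw, nasal and e15.5 libraries. Pax3 has a peak over or near its start in 9 libraries, Pax7 and Pax9 have peaks in the same 4 libraries, and Pax6 has 3 isolated short peaks.

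The Pax3 peaks were gathered on a broad domain over the start of the gene. This domain spanned 18809 bp (chr1:78185636-78204444) and reached from the upstream flank into the gene body, and a stretch of 1833 bp (chr1:78195626-78197458) was covered in all 9 libraries with a peak. The peak on the first start was 2700 bp wide in the e11.5 maxillary process and 2220 bp wide in the e13.5 mandibular process. It was 9446 bp wide in the medial nasal plate, 10985 bp in the lateral nasal plate, 9886 bp in the e13.5 maxillary process and 17873 bp in the e13.5 nose. In the e15.5 libraries labelled mandibular process, maxillary process and nose it was 14152 bp, 9274 bp and 9802 bp wide. The peak in the e13.5 maxillary process, a jaw library, was thus as wide as that in the medial nasal plate. Among the peaks of each list the widest Pax3 peak ranked 8 in the e13.5 nose, 22 in the lateral nasal plate, 32 in the e13.5 maxillary process and 46 in the medial nasal plate, counting from the widest.

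Just upstream of the Pax3 start the libraries fell into a short and a long form, leaving aside the separate distal regions described below. In the lateral nasal plate, the e13.5 nose and the e15.5 library labelled mandibular process, marked chromatin reached positions -7.04, -7.31 and -7.19 kb relative to the first start, where negative values are upstream. Only in the e13.5 nose was it continuous with the peak on the start. That peak ended at -0.613 kb in the lateral nasal plate and at -2.65 kb in the e15.5 library, with separate peaks beyond it. In the other 6 libraries with a Pax3 peak the upstream edge lay between -1.31 and -0.324 kb. RefSeq annotates several tested regulatory elements in this flank and in the gene. The neural crest element of Pax3 (chr1:78197855-78198465), which RefSeq lists as active in dorsal neural tube, dorsal root ganglia and hindbrain, was overlapped in 6 libraries. It was covered wholly in the e13.5 nose and the e15.5 library labelled mandibular process, over 97.2% of its length in the e15.5 library labelled nose, over 82.3% in the e13.5 maxillary process, over 71.8% in the lateral nasal plate and over 18.3% in the medial nasal plate. Farther upstream, an enhancer element that RefSeq lists as active in hypaxial somites (chr1:78202782-78203072) and an overlapping fragment with no listed tissue (chr1:78202807-78203948) were wholly covered in the 3 libraries of the long form. The neural crest enhancer in the fourth intron (chr1:78167435-78168394) was overlapped in the e15.5 library labelled mandibular process alone, over 53.1% of its length. An enhancer downstream of the gene with recorded activity in melanocytes (chr1:78059403-78061507) had no peak, and the nearest lay 9109 bp away.

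Away from the start, Pax3 had 7 distal regions, each over 1 kb from every annotated start site. An intronic region (chr1:78155464-78161092) was marked in the medial nasal plate, the lateral nasal plate, the e13.5 nose and the e15.5 library labelled mandibular process. Another intronic region (chr1:78170557-78174375) was marked in the e11.5 maxillary process, in both nasal plates and in the e13.5 nose, and the peak in the maxillary process was 311 bp wide against 1354 bp to 3586 bp in the nasal libraries. A region over an exon near the far end of the gene (chr1:78119984-78121987) was marked in the nasal plates only. The upstream region that holds Pax3 upstream window (chr1:78214985-78218886) was marked in the lateral nasal plate and the e13.5 nose, and a short one farther out (chr1:78231604-78232722) in the nose. The remaining 2 intronic regions (chr1:78167880-78168389 and chr1:78175230-78175643) were marked in the e15.5 library labelled mandibular process alone. No distal Pax3 region was marked in a mandibular library of e11.5 or e13.5. The CpG-rich upstream region held 5.66 CpG per 100 bases over its length, above 99.7% of distal regions, whereas the start domain held 2.70, above 30.9% of the regions on a start site.

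Pax7 was marked in 4 libraries and in none of the jaw libraries from e11.5 or e13.5. The gene lies on chromosome 4 (chr4:139737062-139833528, minus strand), and its 16 peaks formed 6 regions. Its covered length was 4853 bp in the medial nasal plate, 28721 bp in the lateral nasal plate, 17636 bp in the e13.5 nose and 7845 bp in the e15.5 library labelled mandibular process, and it was 0 bp in the other 6. A peak in all 3 nasal libraries and in none of the 4 jaw libraries of the earlier stages was found for 6.11% of all genes tested. The lateral nasal plate carried the most and the medial nasal plate the least of the marked libraries.

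The difference between the nasal plates lay mainly at the start of Pax7. The first-start domain (chr4:139819172-139839403) was 20232 bp long and was a continuous peak in the lateral nasal plate, where only 1 other peak of the 21689 was wider. In the medial nasal plate the same interval held a peak of 1530 bp on the start and another of 1049 bp within the gene. The e13.5 nose was intermediate, with peaks of 7290 bp on the start and 7379 bp downstream of it. In the e15.5 library labelled mandibular process the corresponding peaks were 5683 bp and 2162 bp wide. All 4 libraries shared a stretch of the start (chr4:139832014-139833543).

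Beyond the start, Pax7 had 5 distal regions, of which 4 were in introns. The region that holds Pax7 intronic window (chr4:139809426-139812274) was marked in all 3 nasal libraries, with peaks of 1330 bp in the medial nasal plate, 2776 bp in the lateral nasal plate and 1740 bp in the e13.5 nose. An intronic region far into the gene (chr4:139753585-139755920) was marked in both nasal plates, and the upstream region (chr4:139851456-139852682) in the lateral nasal plate and the e13.5 nose. Another 2 intronic regions were marked in the lateral nasal plate alone. None of the 5 was marked in the e15.5 library labelled mandibular process, whose Pax7 peaks both lay in the start domain. RefSeq lists no tested element for Pax7 within the window used.

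Pax9 was marked in the same 4 libraries as Pax7, at more even lengths. The gene lies on chromosome 12 (chr12:56691767-56712822, plus strand), and its 11 peaks formed 4 regions. Its covered length was 11598 bp in the medial nasal plate, 8633 bp in the lateral nasal plate, 14887 bp in the e13.5 nose and 12790 bp in the e15.5 library labelled mandibular process. The other 6 libraries had no Pax9 peak, and in contrast to Pax7 the medial nasal plate carried more than the lateral nasal plate. The domain over the start (chr12:56688903-56702842) was 13940 bp long, was marked in all 4 libraries and also covered part of the antisense gene Gm15524, with which it cannot be told apart in these lists. The widest peak in it was 4921 bp in the medial nasal plate, 4521 bp in the lateral nasal plate, 13834 bp in the e13.5 nose and 10041 bp in the e15.5 library labelled mandibular process. Pax9 promoter lies in the stretch of this domain that all 4 libraries shared (chr12:56694966-56698918).

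Distal peaks of Pax9 were few and each was found in 1 library. A region upstream (chr12:56669454-56670256) was marked in the lateral nasal plate, a region of 344 bp nearer to the gene (chr12:56681220-56681563) in the medial nasal plate and an intronic region (chr12:56704025-56705077) in the e13.5 nose. The region in the medial nasal plate held 5.81 CpG per 100 bases, above 99.8% of distal regions. RefSeq lists 1 tested element at Pax9, a downstream enhancer with reporter activity in the ventromedial part of the medial nasal processes (chr12:56717262-56719757). It had no peak in any library, including the e11.5 medial nasal plate, and the nearest peak, in the e13.5 nose, ended 12185 bp from it. Absence from a list means that no peak passed the threshold there, and weaker signal cannot be seen in these data.

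Pax6 carried almost no mark. The gene lies on chromosome 2 (chr2:105668900-105697364, plus strand) and has 24 annotated start sites, and its 3 peaks were found in 3 libraries with no overlap between them. A peak of 316 bp (chr2:105608147-105608462) was called in the e11.5 mandibular process, of 323 bp (chr2:105568763-105569085) in the e13.5 mandibular process and of 732 bp (chr2:105676195-105676926) in the e13.5 nose. In that order the -log10 q was 1.33, 1.78 and 2.11, in lists that start at 1.3. By q-value the peaks ranked 8196 of 8402, 4482 of 6887 and 18788 of 25941. Both mandibular peaks lay upstream in the body of the antisense gene Pax6os1, and the farther of them, 99.8 kb from the first start, was only just inside the window. The peak in the nose overlapped an exon, lay 66 bp from an annotated start site and held 8.88 CpG per 100 bases. It lay 390 bp from a tested fragment of the P1 promoter of Pax6, which is not at the first start. The first start of Pax6 had no peak in any library, including the 3 nasal ones. RefSeq lists 16 tested fragments at Pax6, several of which overlap, with activity in lens, cornea, retina, pancreas, diencephalon or hindbrain. None of the 16 was overlapped by a peak, whereas 5 of 6 at Pax3 were, and over the genome 505 of 1153 such elements (43.8%) had a peak in at least 1 library.

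**Figure D2:**
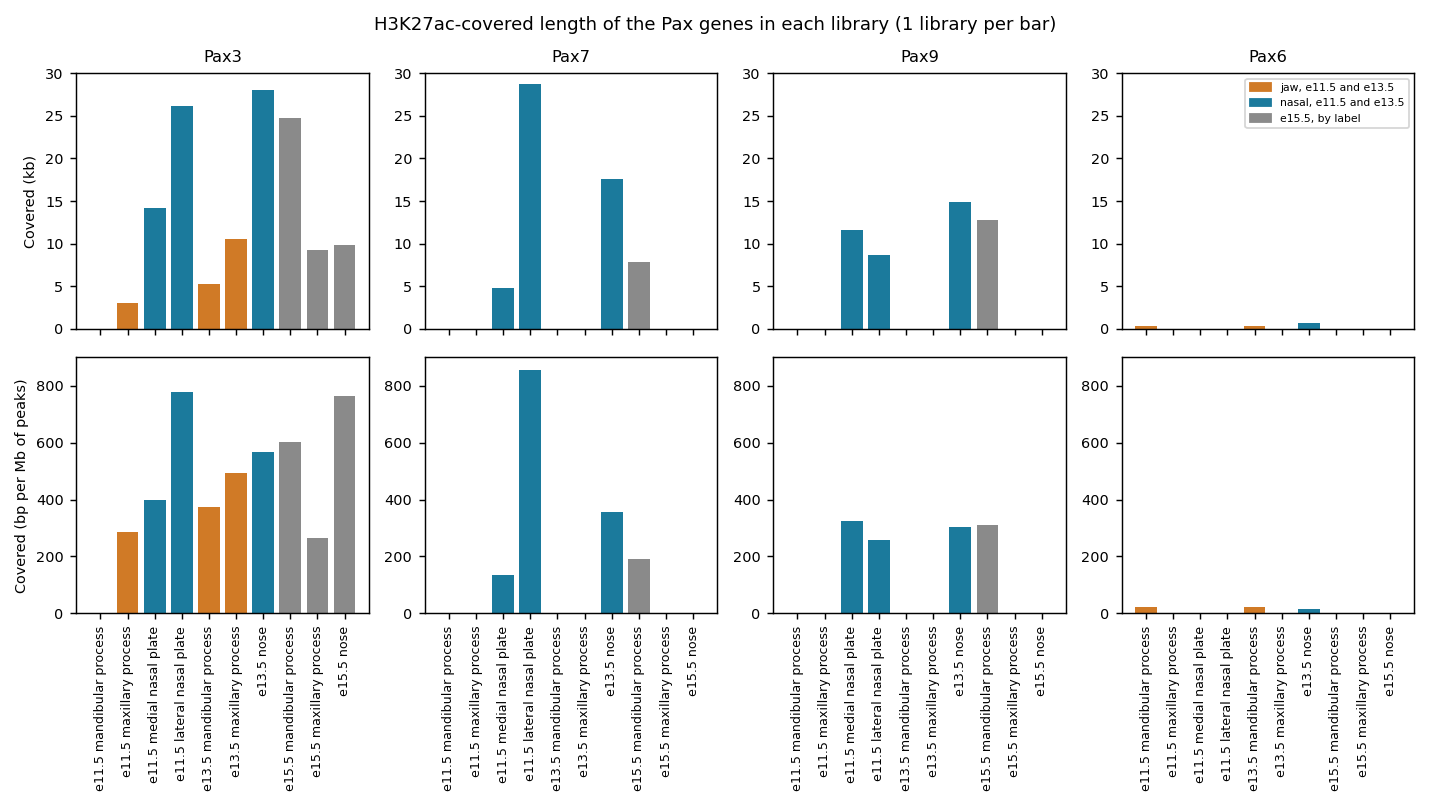
Covered length of each Pax gene per library, in kb (upper row) and in bp per Mb of all peaks of that library (lower row); each bar is 1 library, coloured as jaw, nasal or e15.5 by label. In the upper row the nasal bars of Pax3, Pax7 and Pax9 all exceed the jaw bars, and in the lower row the Pax3 values of nasal and jaw tissue overlap. Pax7 and Pax9 are at 0 in jaw tissue in both rows, which scaling cannot change.

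The regional comparison asked whether the 3 nasal libraries of e11.5 and e13.5 differed from the 4 jaw libraries. Mean covered length of Pax3 was 22836 bp ± 7503 (SD, n = 3) in nasal and 4711 bp ± 4445 (SD, n = 4) in jaw tissue, a difference of 18126 bp. Pax7 had 17070 bp ± 11944 (SD, n = 3) and Pax9 11706 bp ± 3128 (SD, n = 3) in nasal tissue, against 0 bp in every jaw library. These are differences between regions at 2 stages, and the SD holds regional and stage differences as well as technical ones. For each of these 3 genes every nasal library lay above every jaw library, which was also true of 27.4% of the 14283 genes tested. In all 3 the exact two-sided permutation p was 0.0286, the smallest that 3 against 4 libraries allow, and the Benjamini-Hochberg adjusted p over all genes tested was 0.139. Pax6 differed by 84.25 bp, with 244 bp ± 423 (SD, n = 3) in nasal and 160 bp ± 184 (SD, n = 4) in jaw tissue, which is within the spread (exact permutation p = 0.886, adjusted p = 0.936). Within e11.5 alone (2 against 2 libraries) the differences were 18713.5 bp for Pax3, 16787 bp for Pax7 and 10115.5 bp for Pax9, and within e13.5 (1 against 2) they were 20155, 17636 and 14887 bp. With the e15.5 libraries included as labelled they were 10759, 11495 and 6648 bp (exact permutation p = 0.0952, 0.0619 and 0.162). There the library with peaks named nose counts as jaw and the library with peaks named mx as nasal. Across all genes no adjusted p fell under 0.05, and 2942 genes had an unadjusted p under 0.05 by the same permutation test.

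By size, the differences of these 3 genes lay in the upper tail of all genes. The median difference over all genes tested was 892 bp, and 93.8% of genes had a higher mean in nasal tissue. Among these differences Pax3 stood at the 99.5th percentile, Pax7 at the 99.4th, Pax9 at the 98.4th and Pax6 at the 9.22nd. In number of peaks, nasal exceeded jaw libraries by a mean of 4.83 for Pax3, 4.67 for Pax7 and 3 for Pax9 (exact permutation p = 0.0286 each, adjusted p = 0.171), and 17.8% of genes were higher in every nasal library by this measure.

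**Figure D3:**
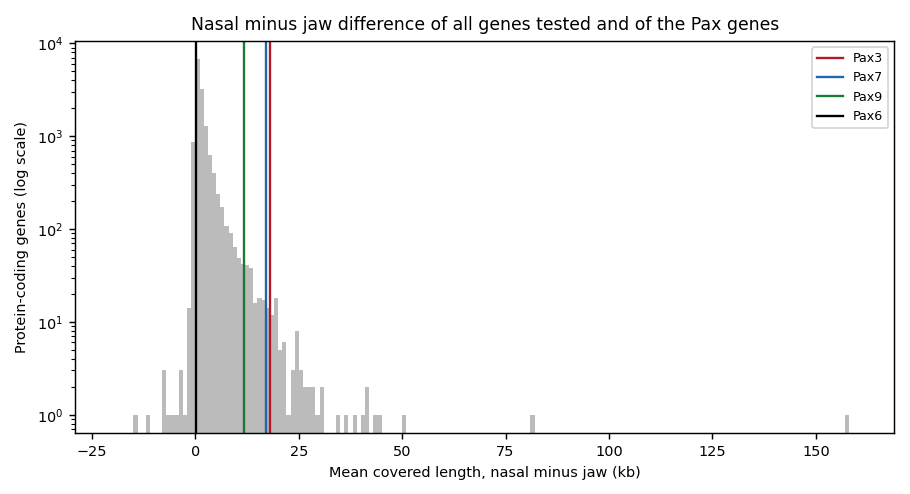
Distribution of the difference in mean covered length, nasal minus jaw (x axis, kb), over the 14283 protein-coding genes tested (y axis, number of genes, log scale), with vertical lines for the 4 Pax genes. The lines of Pax3, Pax7 and Pax9 stand in the right tail at 18126, 17070 and 11706 bp, and that of Pax6 stands near 0.

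The covered length was also expressed relative to the length under all peaks of a library. Per Mb of all peaks in the library, Pax3 covered 399 bp in the medial nasal plate, 779 bp in the lateral nasal plate and 569 bp in the e13.5 nose. In jaw tissue it covered 0 bp and 287 bp at e11.5 and 374 bp and 494 bp at e13.5, in the mandibular and maxillary process respectively. The groups overlapped for Pax3 on this scale, with a difference of 294 bp per Mb (exact permutation p = 0.114, adjusted p = 0.365). Pax7 covered 136 bp, 855 bp and 357 bp per Mb in the same nasal libraries, and Pax9 covered 325 bp, 257 bp and 302 bp per Mb, a narrow range. The differences were 449 and 294 bp per Mb, and since a value of 0 bp in jaw tissue stays 0 under any scaling, their order could not change on this scale and gives no information on list length. On this scale 9.7% of genes were higher and 15.9% lower in every nasal library. A Pax9 value of 312 bp per Mb in the e15.5 library labelled mandibular process fell within the nasal range.

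The position of the peaks within each list differed between the genes. The best Pax9 peak, ranked by q-value from the strongest, stood at 12756 in the lateral nasal plate, 8860 in the medial nasal plate, 7717 in the e13.5 nose and 11161 in the e15.5 library labelled mandibular process. All 4 ranks lie beyond 6571, the length of the shortest list, so with the same number of peaks taken from every library no Pax9 peak was left and no test could be made. The best Pax7 peak stood at 2375 in the lateral nasal plate and at 10388, 8883 and 11592 in the other 3, and at equal list length Pax7 remained in the lateral nasal plate alone (exact permutation p = 0.429). Pax3 ranked higher than Pax7 and Pax9 in each library that had them. Its best ranks were 806 in the lateral nasal plate, 1339 in the e13.5 maxillary process and 1869 in the e15.5 library labelled nose. The others stood at 2567 to 4503, except for 7817 in the e15.5 library labelled maxillary process, which lies beyond 6571. At equal length nasal exceeded jaw libraries in Pax3 by a mean of 8773 bp (exact permutation p = 0.0857). By this measure 6.18% of the 9720 genes left were higher and 0.309% lower in every nasal library.

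**Figure D4:**
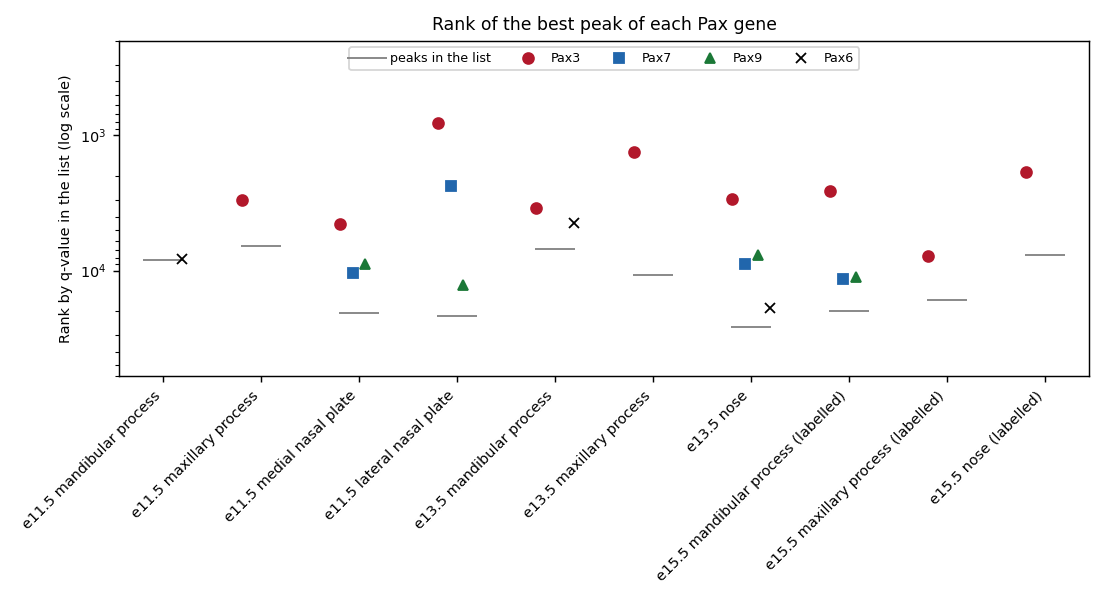
Rank by q-value (log scale, the strongest peak at the top) of the best peak of each Pax gene in each library; the grey line is the number of peaks in that list. Pax3 symbols lie above those of Pax7 and Pax9 in every library that has them, and the Pax9 symbols all lie below rank 6571, where the shortest list ends.

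Stage was compared over all 10 libraries, since stage is the same in labels and peak names at e15.5. The mix of regions differed by stage, with both nasal plates at e11.5 and only the nose later, and the test took no account of region. The spread therefore holds regional differences, and for Pax3, Pax7 and Pax9 the slope also holds the share of nasal libraries. Pax3 had a mean covered length of 10862 bp ± 11919 (SD, n = 4) at e11.5, 14634 bp ± 11926 (SD, n = 3) at e13.5 and 14623 bp ± 8812 (SD, n = 3) at e15.5. Its slope of 981 bp per day was within the spread (exact permutation p = 0.623, adjusted p = 0.930). Pax7 had means of 8394 bp, 5879 bp and 2615 bp at the 3 stages, with SDs of 13743, 10182 and 4529 bp, and its slope of -1436 bp per day did not pass either (exact permutation p = 0.502, adjusted p = 0.901). For Pax9 the means were 5058, 4962 and 4263 bp (slope -192 bp per day, exact permutation p = 0.886, adjusted p = 0.996). For Pax6 they were 79, 352 and 0 bp (slope -13.0 bp per day, exact permutation p = 0.858, adjusted p = 0.988). None of the 4 genes had a slope with an unadjusted p under 0.05, and over all genes 6.85% rose and 0.794% fell at that level. No gene had an adjusted p under 0.05 in this permutation test, and 1136 had an unadjusted p under 0.05.

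Within single regions the e11.5 and e13.5 values differed by gene, with 1 library each and so no test. In the mandibular process Pax3 was at 0 bp at e11.5 and at 5303 bp at e13.5, and in the maxillary process it was at 3011 and 10529 bp. Pax7 and Pax9 were at 0 bp in these 4 libraries.

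Further marked chromatin lay beyond the assigned peaks. Downstream of Pax3, between 147 and 218 kb from its first start, 7 regions were nearest to no gene within the window. The most shared of them (chr1:78015748-78018691) was marked in all 3 nasal libraries of e11.5 and e13.5 and in the e15.5 libraries labelled mandibular process and maxillary process. Another (chr1:78007521-78009854) was marked in the same 3 nasal libraries and the e15.5 library labelled mandibular process. The e15.5 library labelled maxillary process had 4 of these unassigned peaks, as many as the e13.5 nose, and each nasal plate had 3. At the Pax9 locus the neighbouring gene Slc25a21, which encodes a mitochondrial carrier, held 11 intronic regions between 133 and 449 kb from the Pax9 start, with 4 peaks in each of the nasal plates, 6 in the e13.5 nose and 2 in the e15.5 library labelled mandibular process. The other 6 libraries had no peak in Slc25a21. Of its regions 2 were marked in all 3 nasal libraries (chr12:57076378-57076996 and chr12:57138289-57140311). These peaks were not assigned to Pax9, and which gene they act on was not tested.

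Within 500 kb of the Pax9 start, peaks of any gene were few outside the libraries in which Pax9 was marked. There were 0 peaks in the e11.5 mandibular process, the e11.5 maxillary process, the e13.5 mandibular process and the e15.5 libraries labelled maxillary process and nose, and 1 in the e13.5 maxillary process, against 10, 7 and 9 in the medial nasal plate, lateral nasal plate and e13.5 nose and 4 in the e15.5 library labelled mandibular process. Around Pax7 each jaw library of e11.5 and e13.5 held 3 to 6 peaks within 500 kb, all assigned to other genes.

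The other 5 Pax genes were less marked than Pax3, Pax7 and Pax9. Pax8, known from thyroid and kidney development, was covered over 1439 bp in the medial nasal plate, 884 bp in the lateral nasal plate and 1690 bp in the e13.5 nose, and in no other library. Pax1, a close relative of Pax9 known from the skeleton and pharyngeal pouches, was covered over 2385 bp in the lateral nasal plate and 6482 bp in the e13.5 nose. Pax2 was covered over 467 bp in the medial nasal plate and 328 bp in the e15.5 library labelled nose, and Pax4 and Pax5 had no peak. Thus of 5 genes 1 was higher in every nasal than in every jaw library, beside 27.4% of all genes.

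Genes that work with Pax3 and Pax7 in the cranial neural crest and the frontonasal mesenchyme were covered more widely in nasal tissue. Of the 12 listed, 11 had a peak, 8 were higher in every nasal library (27.4% of all genes were) and none was lower, with a median difference of 10983 bp beside 892 bp over all genes. Per Mb of peaks 3 were higher in every nasal library (Msx2, Sox10 and Tfap2a, beside 9.7% of all genes), and at equal list length 4 were (beside 6.18%). Alx4, a homeobox gene of the frontonasal mesenchyme, covered 27316, 29797 and 32787 bp in the medial nasal plate, lateral nasal plate and e13.5 nose, and 7193 to 10656 bp in the jaw libraries. Tfap2a, a regulator of neural crest and facial ectoderm, covered 21573 to 24404 bp in the nasal and 0 to 8214 bp in the jaw libraries. Tfap2b covered 13444 to 33795 bp against 0 to 11776 bp, and Alx1 20077 to 35511 bp against 0 to 15953 bp. Both therefore had groups that did not overlap, with the e13.5 maxillary process as the highest jaw library, as for Pax3.

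Genes that act with Pax9 in palate and tooth mesenchyme differed in direction. All 13 listed had a peak, 2 were higher (27.4% of all genes were) and 1 was lower in every nasal library, and the median difference was 357 bp. Per Mb of peaks none was higher (9.7% of all genes were) and 1 was lower throughout, and the median turned to -114 bp per Mb. Msx1, needed with Pax9 for tooth development, covered 17384 to 21271 bp in nasal and 11017 to 12943 bp in jaw libraries, but per Mb of peaks its nasal mean was lower, with a difference of -334 bp. Bmp4, a secreted signal of tooth and palate, covered 7508 to 8325 bp against 0 to 2356 bp. Lhx8, a homeobox gene of jaw and tooth mesenchyme, went the other way, with 2528 to 7461 bp in nasal and 9366 to 17608 bp in jaw libraries. Such a reverse order was found for 0.042% of genes in covered length and for 15.9% per Mb of peaks.

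Genes that act with Pax6 in the olfactory and lens placodes were marked in nasal tissue, where Pax6 had 1 short peak. Of 12 listed, 11 had a peak, 6 were higher in every nasal library (27.4% of all genes were) and none was lower, with a median difference of 978 bp. Per Mb of peaks 3 were higher (9.7% of all genes were) and 1 lower throughout (15.9% were). At equal list length 1 was higher, beside 6.18% of the genes left. Six3 covered 10942, 10150 and 14523 bp in the medial nasal plate, lateral nasal plate and e13.5 nose, and 0 bp in the 4 jaw libraries. Sox2 covered 10938, 3393 and 9948 bp in these nasal libraries, against 0 to 298 bp in jaw tissue. Both encode transcription factors of early sensory placodes. Eya1 (12737 to 18090 bp against 3835 to 9382 bp), a transcriptional cofactor of placodes, was higher in every nasal library in covered length but not per Mb of peaks.

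Markers of the regions and of other cell types were read from the same lists. Of 6 nasal markers, 5 had a peak and all 5 were higher in every nasal library, beside 27.4% of all genes. Per Mb of peaks 1 of them was (9.7% of all genes were), and at equal list length 3 were, beside 6.18% of the genes left. The summed covered length of the list was 78582 to 132547 bp in nasal and 12106 to 36977 bp in jaw tissue. Of 6 mandibular markers none was higher or lower throughout, beside 27.4% and 0.042% of all genes. The sum of these markers was 1084 to 18001 bp in nasal and 562 to 54405 bp in jaw libraries. Among 5 maxillary markers, Rspo2 was higher (27.4% of all genes were) and Lhx8 lower (0.042% were) in every nasal library. The sums over all 5 were 19661 to 51851 bp in nasal and 11425 to 29692 bp in jaw libraries. These lists share genes with the partner lists above.

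Muscle and melanocyte markers bear on Pax3 and Pax7, which are also active in those lineages. Muscle markers had a peak for 6 of 9 genes, with a sum of 3623 to 6684 bp in nasal and 0 to 2756 bp in jaw tissue. Musk alone was higher in every nasal library, beside 27.4% of all genes, and it was not per Mb of peaks. Myod1, Myf5 and Myf6 were at 0 bp in all 7 earlier libraries (e11.5 and e13.5), whereas Myog had 1368 bp and Des 3934 bp in the medial nasal plate, Des had 1762 bp and Msc 938 bp in the lateral nasal plate, and Msc had 808 bp in the e13.5 nose, with these 3 at 0 bp in jaw tissue. Melanocyte markers had a peak for 5 of 8 genes, summed to 5029 to 11288 bp against 2092 to 3385 bp, and Tyr, Tyrp1 and Mlana were at 0 bp throughout, whereas Dct (872 to 3369 bp) and Pmel (984 to 2217 bp) had a peak in all 7 earlier libraries. Of the 8, Kit (713 to 1361 bp against 0 bp) and Sox10 (525 to 2780 bp against 0 bp) were higher in every nasal library, near the 27.4% of all genes. Both also mark neural crest or other cells. Their part in the Pax3 and Pax7 values was not tested.

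Markers of eye, forebrain and olfactory neurons bear on Pax6. Eye and lens markers had a peak for 4 of 8 genes and summed to 468 to 5184 bp in nasal and 0 to 1327 bp in jaw tissue, with Rax and Six6 at 0 bp. Forebrain markers had a peak for 3 of 6 and summed to 6101 to 19654 bp and 0 to 18594 bp, with Neurod2 and Nkx2-1 at 0 bp. Emx2 made up most of the nasal sum (6101, 6759 and 18465 bp, against 0 to 6673 bp in jaw libraries), and Dlx1 gave the highest jaw sum with 18594 bp in the e11.5 mandibular process. For olfactory neurons 5 of 7 had a peak, the sums were 7126 to 12291 bp and 303 to 1232 bp, and Omp and Neurod1 were at 0 bp. Of the 7, Ebf2 and Elavl4 were higher in every nasal library, near the 27.4% of all genes, and Ebf2 alone was per Mb of peaks. Their part in the Pax6 values was not tested.

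The genes most like each Pax gene over the 10 libraries were found by Pearson correlation of bp per Mb of peaks among 12322 candidates with a peak in at least 3 libraries. For Pax9 they were B630019K06Rik (r = 0.997), Tjp3 (r = 0.996) and Foxc1 (r = 0.995), the last of which encodes a forkhead factor of neural crest mesenchyme. For Pax7 they were Prf1 (r = 0.983), Fam92b (r = 0.979) and Nudc (r = 0.972). Pax3 had weaker likenesses with Sqle (r = 0.880), Vps25 (r = 0.868) and Plpp3 (r = 0.868). For Pax6 the highest were Gm3045 (r = 0.895), Agrp (r = 0.892) and Dlx5 (r = 0.864), over a profile with 3 values above 0. The points share libraries, list lengths and, for 3 of the genes, many zeros, so these values are a description of order and no test was made.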

How the data were processed

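H3K27ac ChIP-seq was done by the authors on freshly dissected, crosslinked and sonicated face tissue of wild-type mouse embryos, and the deposited files are 1 broad peak list per library in mm10. BWA 0.7.7, SAMtools 0.1.19 and MACS2 2.2.4 are listed in the processing notes of the submitters. Each deposited row gives a position, a display score, a fold enrichment and the -log10 of the p-value and q-value, with -log10 q of at least 1.3 in every list as deposited. The 10 input samples were not analysed here, and strain and read depth are not given in the sources used here. Peaks were called per library, so lists can differ in length with depth and enrichment.

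Of 144896 peaks, the 144852 on the autosomes and on X and Y were assigned as stated above, and adjoining or overlapping peaks of all libraries were merged into regions. The covered length is the summed width of the assigned peaks. Regions and stages were compared by exact permutation tests over libraries (35 and 4200 assignments) on every protein-coding gene with a peak, with Benjamini-Hochberg adjustment, in Python 3.11.15 with numpy 2.4.6, pandas 2.3.3 and matplotlib 3.10.9. As a check of the code, a nasal excess was planted in shuffled data, and 200 of 200 planted genes reached the smallest p. The excess was the largest covered length of any gene, so this outcome was fixed. It says nothing about differences of the size seen here. Sequences came from the GRCm38 genome and RefSeq promoter entries. Tested elements were the enhancers and promoters of RefSeq's functional annotation within 100 kb of a gene, with 1 bp as the minimum overlap.

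The members, gene lists and tests were chosen with earlier results of these data known. Named genes were the 4 members, the other 5 Pax genes, up to 4 genes of each list with the largest differences among those whose groups did not overlap, and the 3 most similar genes per member. Hand2, Slc25a21, the other neighbouring and antisense genes, the element overlaps, the markers named at 0 and other markers outside this rule were chosen after their values were seen. Some listed genes are not reported here by name. Alternatives were a stricter q-value, equal list length, number of peaks, scaling to the length under all peaks, a 50 kb window, assignment by start site only, other sets of stages and leaving out each library.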

Additional observations from a re-analysis of the deposited data

Results flagged for a closer look

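Within the 4 libraries of e11.5, the covered length of Pax7 in the lateral nasal plate (28721 bp) stood apart from the other 3 (0, 0 and 4853 bp), with a gap to its nearest neighbour of 0.831 of the whole range, just above Dixon's critical value for 4 values. For Pax6 the e11.5 mandibular process (316 bp) was the only library of that stage above 0 bp, so the gap was 1 of the range. Chance flags about 1 in 20 groups, 6 groups were tested, and Dixon's value assumes values without ties, which the libraries at 0 bp do not meet.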

How the results depend on the processing

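The nasal minus jaw differences of Pax3 and Pax7 kept their sign under all 16 alternatives, as did that of Pax9 under 15. Pax7 and Pax9 were at 0 bp in every jaw library of e11.5 and e13.5. For these genes only the setting with the e15.5 libraries could have reversed the sign, so the other settings carry no information on direction. With the e15.5 libraries included as labelled, Pax3 fell to 10759 bp, Pax7 to 11495 bp and Pax9 to 6648 bp. That setting counts the library with peaks named nose as jaw and the library with peaks named mx as nasal. How far the fall depends on the labels was not tested. At equal list length no Pax9 peak was left (difference and slope 0). Leaving out each library gave 15508 to 22423 bp for Pax3, 11244.5 to 23178.5 bp for Pax7 and 10115.5 to 13242.5 bp for Pax9. No gene of any kind passed an adjusted p of 0.05 under any setting, so no call could be lost.

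The small Pax6 difference reversed at equal list length (-80.75 bp), in number of peaks (-0.167), per Mb of peaks (-5.84 bp), within e11.5 (-158 bp) and without the e13.5 nose (-159.75 bp), with a range of -159.75 to 206.25 bp when each library was left out. Its slope reversed with a -log10 q of at least 2 or a 50 kb window (5.30 bp per day for both), at equal list length (2.34) and without the e15.5 libraries (136), and ranged from -26.3 to 0 with each library left out, being 0 without the e11.5 mandibular process. The Pax3 slope reversed in number of peaks (-0.123 per day) and without the e15.5 library labelled mandibular process (-65.0 bp per day), in a range of -65.0 to 2218 bp. The Pax7 slope ranged from -2144 to 249 bp and reversed without the lateral nasal plate (249). The Pax9 slope reversed with a -log10 q of at least 2 (91.9 bp per day) and ranged from -1118 to 346 bp with each library left out. It was 346 without the medial nasal plate, 99.3 without the lateral nasal plate, and 288 without either the e15.5 library labelled maxillary process or that labelled nose. The causes were not tested. No paired analysis was made, and the labels give no replicate numbers that pair libraries. The regional test exchanged libraries freely between e11.5 and e13.5, so it took no account of stage. Each region at a stage rests on 1 library, list length moved with region, and signal under the peak threshold cannot be seen.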
